A study of Drosophila melanogaster with 3 samples.

Results

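Chromatin immunoprecipitation followed by sequencing (ChIP-seq) mapped the genomic sites of CG14710, assayed as a transcription factor, in whole Drosophila melanogaster embryos. The study had 1 group of 3 biological replicates: embryos of both sexes, 0 to 14 hours old, from a transgenic line that stably carried CG14710 with GFP at its C-terminus, precipitated with an antibody against GFP. The peaks described here are weaker peaks that all 3 replicates shared. They were chosen from the peak lists themselves: lines of the authors' pooled list that did not pass their cut on the irreproducible discovery rate (IDR), with the pooled summit inside an interval of each replicate's list. The rule found 7609 peaks (the members), 36.6% of the 20806 pooled peaks outside the IDR list and 25.4% of all 30000 pooled peaks. They are set against the 9194 IDR peaks, and the other 13197 pooled peaks are given where they help to read a value. Samples without the tagged protein were not analysed here, so signal that the tag or the open state of the chromatin would give by itself cannot be told apart from signal of CG14710.

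A ChIP-seq peak is a stretch of genome where precipitated fragments pile up, and its summit is the point of the highest pile. The IDR procedure keeps peaks whose rank is alike between replicates, so a peak outside the IDR list can still recur in every replicate at a lower rank. In Drosophila, the promoters of broadly expressed genes often carry short sequences read by proteins such as DREF, M1BP and ZIPIC, whereas the introns and intergenic stretches of developmental genes hold many enhancers, which are short stretches that switch a gene on in chosen cells. Factors of early and patterned enhancers include GAF, a protein that binds GA repeats and helps to keep chromatin open, Runt, a segmentation factor, and Tinman, a homeodomain factor of the mesoderm and heart. They also include Zelda, Bicoid, Caudal, Twist and Grainyhead, whose sequences were searched too. None of these last sequences differed past the threshold over all summits of the full sets. Because the embryos were whole and the cells mixed, weak binding in many cells and strong binding in few cells cannot be told apart.

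The windows that carry the main sequence differences are given here. For each of the 4 motifs that were more frequent and the 4 with the smallest odds ratios among the less frequent, the 101 bp around the summit of 1 weaker shared peak are given. It is the peak with the highest pooled signal that holds the motif, among those with no untranslated bases in the window and with 1 chromosome arm left out. All are on the plus strand of the RefSeq sequence of Release 6, which is dm6, and capitals mark the motif on whichever strand it lies. The first 4 hold sequences that were more frequent in the weaker shared peaks than in the IDR peaks. They came from an intron in the bnl region (chr3R:19822307-19822407; bnl encodes an FGF ligand), an intron in the Pka-C1 region (chr2L:9693144-9693244; the catalytic subunit of protein kinase A), an intron in the gish region (chr3R:16286149-16286249; a casein kinase) and an intergenic site near CG17746 (chr3L:3241063-3241163).
CA repeat, near bnl: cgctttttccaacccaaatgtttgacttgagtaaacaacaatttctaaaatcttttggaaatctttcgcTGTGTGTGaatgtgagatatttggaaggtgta
GAF, near Pka-C1: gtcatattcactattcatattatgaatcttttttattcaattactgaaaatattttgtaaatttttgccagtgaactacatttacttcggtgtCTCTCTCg
Runt, near gish: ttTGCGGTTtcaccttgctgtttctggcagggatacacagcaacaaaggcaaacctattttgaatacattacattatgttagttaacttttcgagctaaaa
Tinman, near CG17746: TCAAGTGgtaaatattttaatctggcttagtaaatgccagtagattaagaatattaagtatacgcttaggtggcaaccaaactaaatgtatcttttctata

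The other 4 hold sequences that were less frequent in the weaker shared peaks. They came from the promoter of vnd (chrX:581957-582057; a homeodomain factor of the ventral nervous system), the promoter of PIG-Wa (chr2L:2383087-2383187), an intergenic site near E2f2 (chr2L:21154042-21154142; a repressive E2F factor) and the promoter of CG14074 (chr3L:18866113-18866213).
DREF, at vnd: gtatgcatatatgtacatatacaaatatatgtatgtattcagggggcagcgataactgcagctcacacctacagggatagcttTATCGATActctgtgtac
M1BP, at PIG-Wa: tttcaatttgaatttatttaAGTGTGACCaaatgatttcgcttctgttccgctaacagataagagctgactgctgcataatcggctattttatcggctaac
ZIPIC, near E2f2: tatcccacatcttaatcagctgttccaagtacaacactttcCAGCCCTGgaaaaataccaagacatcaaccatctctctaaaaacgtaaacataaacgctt
Core promoter motif 6, at CG14074: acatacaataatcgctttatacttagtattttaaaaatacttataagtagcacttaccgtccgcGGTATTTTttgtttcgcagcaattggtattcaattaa

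The label of a weaker peak held for every one of them, but a peak of their own in each replicate did not. Pooled signal, the authors' value for a peak's strength, had a median of 139 in the weaker shared peaks and 546 in the IDR peaks, and 72.7 in the other pooled peaks. The 2 ranges met without overlap, with a highest value of 262.521 in the weaker shared peaks against a lowest value of 262.527 in the IDR peaks. The IDR list therefore held the strongest pooled peaks, and this difference in signal follows from the lists. Just outside the IDR list stood the members at CG5828 (262.521), CHES-1-like, a forkhead factor gene (262.509), and the kinase gene Tlk (262.489). Just inside stood peaks at D2hgdh (262.527), whd (262.561) and shn (262.647), of which the D2hgdh summit lay inside intervals of only 2 replicates. Lying in all 3 replicates was not a property that set the groups apart fully, since 8445 IDR peaks (91.9%) did so too.

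Non-IDR peaks missed by 1 replicate were common. Of the 20806, 8013 lay inside intervals of 2 replicates, 4563 of 1 and 621 of none. Among the 8013, the missing replicate was replicate 1 for 1477, replicate 2 for 2321 and replicate 3 for 4215. Replicate intervals covered 8.38%, 8.80% and 8.32% of the arms in replicates 1, 2 and 3. The rule asked only for an interval over the summit, so the interval of a neighbouring peak could also meet it. How many members met the rule only in that way was not counted. A summit of its own within 100 bp in all 3 replicates was found for 4296 weaker shared peaks (56.5%), against 88.0% of IDR peaks. In 111 weaker shared peaks no replicate had one. The share followed signal, which was part of the choice: 78.9% of the 1903 strongest members had a near summit in every replicate, against 24.8% of the 1902 weakest.

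Within each replicate the weaker shared peaks stood in the middle of the list. The highest interval over the summit had a median percentile of 54.7 in replicate 1, 51.7 in replicate 2 and 54.9 in replicate 3 for the weaker shared peaks, where a percentile is the rank of the signal among the 30000 peaks of that replicate's list. The medians for IDR peaks were 85.1, 85.1 and 85.3. From the 5th to the 95th percentile of its distribution, the value ran from 13.3 to 80.2 for the weaker shared peaks in replicate 1 and from 66.3 to 98.6 for the IDR peaks. The ranges of the sets thus overlapped in a single replicate, although they did not in the pooled signal.

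**Figure D1:**
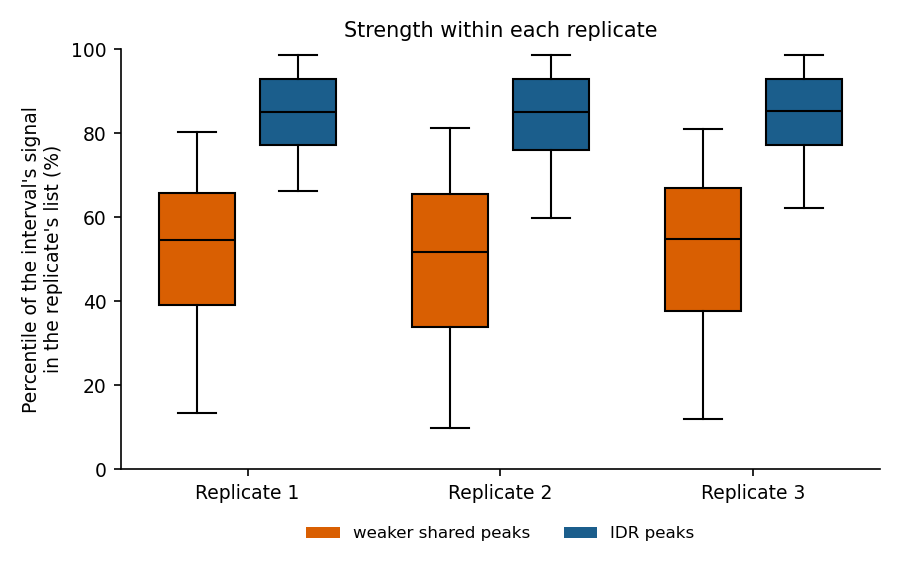
Percentile of the highest replicate interval over each pooled summit (vertical axis, % of that replicate's list), for weaker shared peaks (orange, left in each pair) and IDR peaks with an interval in that replicate (blue, right). The line is the median, the box runs from the lower to the upper quartile and whiskers from the 5th to the 95th percentile; orange medians lie between 51.7 and 54.9, blue medians between 85.1 and 85.3.

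A subset of the weaker shared peaks stood at a fixed distance from an IDR summit. The nearest IDR summit was at a median of 2124 bp, and 1358 weaker shared peaks (17.8%) had it from 190 to under 220 bp away, against 873 (6.62%) of the other pooled peaks. The rule itself can favour such peaks, since the replicate interval of a neighbouring IDR peak can cover a summit this close. The contrast with the other pooled peaks is therefore a description, and the part of the rule in it was not tested. Only 84 weaker shared peaks (1.10%) lay from 220 to under 250 bp away, and none lay under 190 bp. The smallest spacing between any summits of the pooled list was 199 bp, so no closer pair could be seen. In all, 1496 weaker shared peaks (19.7%) lay within 500 bp of an IDR summit, 2194 (28.8%) within 1000 bp and 814 (10.7%) further than 10000 bp away. Inside an IDR interval lay 854 of them (11.2%). Without the members within 500 bp of an IDR summit, a choice made after seeing the data, all 7 region classes and both arms called below kept their direction and call, as did the 11 motifs called over all summits. Distances to a TSS and the promoter counts of the gene lists were not computed without them. By nearest TSS, 12 of 23 weaker shared peaks remained for cytosolic ribosomal protein genes and 3 of 7 for insulator and architectural protein genes. Signalling genes kept 88 of 108 and tracheal and epithelial genes 47 of 51, against 6113 of 7609 over all genes.

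**Figure D2:**
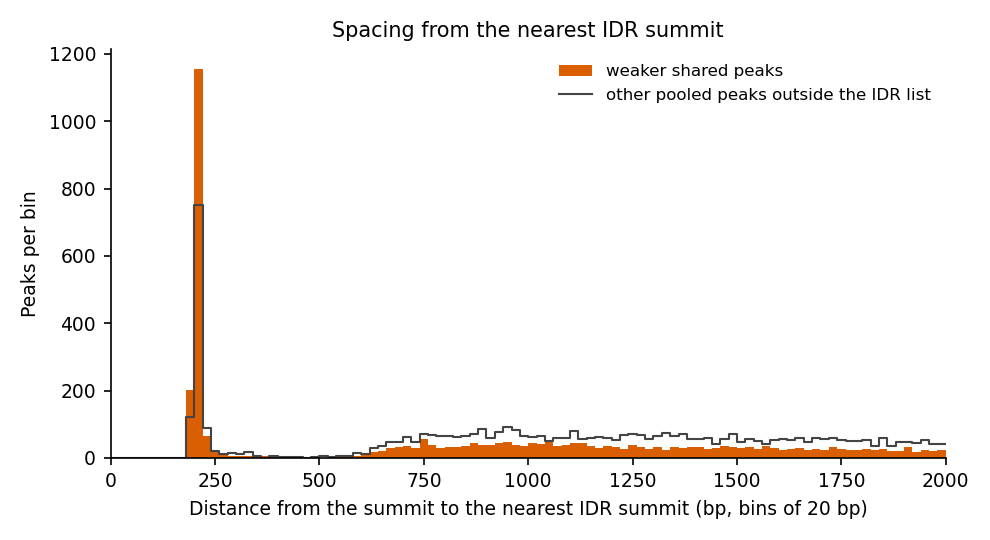
Number of peaks (vertical axis) in bins of 20 bp of the distance from the summit to the nearest IDR summit (horizontal axis, up to 2000 bp), for weaker shared peaks (orange bars) and the other pooled peaks outside the IDR list (dark line). Both show a narrow column near 200 bp, with 1358 weaker shared peaks from 190 to under 220 bp, a gap after it, and a broad low level further out.

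The weaker shared peaks lay less often at promoters and more often in introns and intergenic sequence than the IDR peaks. A summit within 500 bp of a transcription start site (TSS) of any gene was counted as a promoter summit. It was found for 2344 weaker shared peaks (30.8%, 95% Wilson interval 29.8% to 31.9%) and 57.9% of IDR peaks (56.9% to 58.9%), an odds ratio of 0.323 (two-sided Fisher's exact test, adjusted exact p = 5.01e-274 over 7 region classes). In both sets this was above the 13.1% of bases in such windows, and the other pooled peaks were at 22.5%. At the replicates' own summits within 100 bp, the promoter share was 30.6%, 32.0% and 28.1% for the weaker shared peaks in replicates 1, 2 and 3, against 57.7%, 58.2% and 57.6% for the IDR peaks. The mean was 30.2% ± 1.98 for the weaker shared peaks and 57.8% ± 0.305 for the IDR peaks (SD, n = 3), so the difference was many times the spread between replicates. These replicate values come from the same pooled peaks, so they show the spread of summit positions and not 3 separate sets. P-values for peaks cover counting error only, since neighbouring peaks are not independent.

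Introns held 3209 weaker shared peaks (42.2%), against 25.8% of IDR peaks and 39.1% of bases (odds ratio 2.09, adjusted exact p = 2.36e-110; 2.56 without the members within 500 bp of an IDR summit). Intergenic sequence held 1661 (21.8%), against 14.1% of IDR peaks and 28.4% of bases (odds ratio 1.70, adjusted exact p = 1.59e-38; 1.88 without those members). The other pooled peaks were at 44.1% in introns and 22.8% in intergenic sequence, so these shares were not particular to the weaker shared peaks. At the replicates' own summits, introns held 42.7%, 41.6% and 44.1% of the weaker shared peaks in replicates 1, 2 and 3, against 26.1%, 25.8% and 26.1% of the IDR peaks. The introns that held them belonged to genes of similar size, with a median host gene length of 34.6 kb for the weaker shared peaks and 32.5 kb for the IDR peaks. Each summit has a single class and promoters came first, so fewer promoter summits leave more for the other classes. Away from promoters, introns held 3209 of 5265 weaker shared summits and 2375 of 3868 IDR summits. Intergenic sequence held 1661 of these weaker shared and 1297 of these IDR summits. Neither share was higher there in the weaker shared peaks than in the IDR peaks.

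Exons held few summits of either set. Coding exons held 96 weaker shared peaks (1.26%) against 18 IDR peaks (0.196%), an odds ratio of 6.51 (Fisher's exact test, adjusted exact p = 1.44e-17). Both shares stood below the 13.6% of bases in this class, which leaves out coding bases within 500 bp of a TSS. The other pooled peaks were at 4.84%. The odds ratio for coding exons ran from 3.64 in the 50% of weaker shared peaks with the higher signal to 9.98 when replicate 3 was not asked for. It was 9.02 without replicate 1, 9.89 without replicate 2 and 7.62 without the members within 500 bp of an IDR summit. Among the weaker shared peaks themselves, coding exons held 0.42% of the 1903 strongest and 2.73% of the 1902 weakest. In 3' untranslated regions lay 1.98% of weaker shared peaks and 0.848% of IDR peaks (adjusted exact p = 4.16e-10), and in non-coding exons 1.22% of weaker shared peaks and 0.642% of IDR peaks (adjusted exact p = 0.000124). In 5' untranslated regions lay 0.723% of weaker shared peaks and 0.446% of IDR peaks (adjusted exact p = 0.0232), a call that ended in the 50% of weaker shared peaks with the higher signal (adjusted exact p = 0.332) and against the 50% of IDR peaks with the lower signal (0.497). Of bases, 4.32% were in 3' untranslated regions, 0.879% in non-coding exons and 0.590% in 5' untranslated regions. The IDR peaks stood below each of these shares. The weaker shared peaks stood below it for 3' untranslated regions and above it for non-coding exons and 5' untranslated regions. All 7 classes passed in the full sets.

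**Figure D3:**
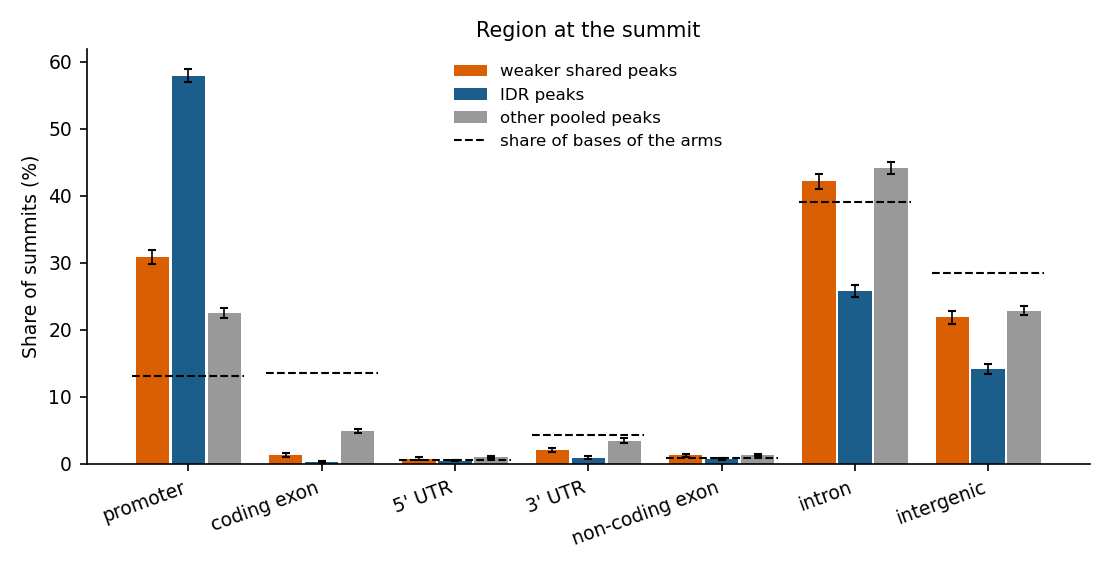
Share of summits (vertical axis, %) in 7 region classes for weaker shared peaks (orange), IDR peaks (blue) and other pooled peaks (grey), with 95% Wilson intervals as bars and the share of bases as a dashed line. Promoters held 30.8% of weaker shared peaks and 57.9% of IDR peaks, and introns held 42.2% of weaker shared peaks and 25.8% of IDR peaks.

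The promoter share moved with signal inside each set. In 4 equal steps from the strongest to the weakest it was 35.9%, 32.0%, 28.2% and 27.1% in the weaker shared peaks, and 69.3%, 62.8%, 54.9% and 44.7% in the IDR peaks. Close to the boundary the sets came nearer to each other. Of the 500 strongest weaker shared peaks, 36.6% (Wilson interval 32.5% to 40.9%) were at promoters, against 43.4% (39.1% to 47.8%) of the 500 weakest IDR peaks. These intervals overlap, which does not show that the shares are alike, and their difference was not tested. Against the 50% of IDR peaks with the lower signal, the odds ratio for promoters was 0.449, nearer to 1 than in the full sets and still past the threshold (two-sided Fisher's exact test, exact p = 8.03e-97 before adjustment). Spacing moved the share the other way: 61.0% of the 1496 members within 500 bp of an IDR summit were promoter summits, against 23.4% of the 6113 members further away. Without the 1496, the odds ratio was 0.222 in place of 0.323.

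The distance to the nearest TSS of a protein-coding gene gave the same order. Its median was 1598 bp for the weaker shared peaks and 261 bp for the IDR peaks, and 1999 bp for the other pooled peaks. Within 100 bp of a TSS lay 11.5% of the weaker shared peaks and 29.6% of the IDR peaks, while 761 weaker shared peaks and 540 IDR peaks lay beyond 10000 bp. Of the promoter summits, 58.0% among the weaker shared peaks were upstream of the TSS, against 82.2% among the IDR peaks and 51.1% among the other pooled peaks. Base composition moved in parallel, with 38.6% ± 10.4 G and C in the 101 bp around the weaker shared summits and 33.7% ± 9.71 around the IDR summits (SD over peaks), against 42.1% in the genome. Soft-masked repeats held 20.1% of the weaker shared summits and 22.2% of the IDR summits, close to the 20.9% of bases that are masked.

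Chromosome arms differed little. The X chromosome held 1608 weaker shared peaks (21.1%) and 18.3% of IDR peaks (odds ratio 1.20, Fisher's exact test adjusted over 6 arms, exact p = 2.67e-05), and 3R held 20.7% of weaker shared and 22.7% of IDR peaks (odds ratio 0.892, adjusted exact p = 0.00709). The arms 2L, 2R, 3L and 4 did not pass. Without replicate 3 the X odds ratio was 1.06 and the call ended (adjusted exact p = 0.122), and against the 50% of IDR peaks with the lower signal neither arm passed (adjusted exact p = 0.567 for both). The 3R call also ended in the 50% of weaker shared peaks with the higher signal (adjusted exact p = 0.318).

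Several known sequences of promoter proteins were rarer at the weaker shared summits than at the IDR summits, and the CA repeat and the GAF, Runt and Tinman sequences were more frequent. Of 29 motifs searched within 50 bp of the summit on either strand, 4 were more frequent in the weaker shared peaks than in the IDR peaks, 7 less frequent and 18 neither (two-sided Fisher's exact tests, Benjamini-Hochberg adjustment over the 29). The share of all 101 bp windows of the genome that hold each motif is given as the genome share. A match of letters is a description of the sequence, not a measured binding site. Mean G and C content also differed over all summits, at 38.6% for weaker shared and 33.7% for IDR peaks. At promoters it was 40.3% for weaker shared and 35.3% for IDR peaks. The part of base composition in the motif differences was not tested.

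The smallest odds ratios belonged to the sequences of DREF, M1BP and ZIPIC. TATCGATA, the DREF sequence printed at vnd, lay at 75 weaker shared summits (0.986%) and 403 IDR summits (4.38%), with a genome share of 0.277% (odds ratio 0.217, adjusted exact p = 2.14e-42). At the replicates' own summits it was at 1.00% ± 0.114 of weaker shared peaks and 4.22% ± 0.133 of IDR peaks (SD, n = 3), ranges that did not overlap. GGTCACACT, the M1BP sequence, lay at 0.618% of weaker shared summits and 2.55% of IDR summits (genome 0.0974%, odds ratio 0.238, adjusted exact p = 4.23e-23). CAGGGCTG, read by the insulator protein ZIPIC, lay at 0.302% of weaker shared summits and 1.09% of IDR summits (genome 0.145%, odds ratio 0.276, adjusted exact p = 3.17e-09). GGTATTTT, core promoter motif 6, lay at 1.20% of weaker shared summits and 2.57% of IDR summits (genome 0.606%, odds ratio 0.459, adjusted exact p = 3.52e-10). CANCNCTA, core promoter motif 7, lay at 3.04% of weaker shared and 5.29% of IDR summits (genome 2.50%). TATAAA, the TATA box, lay at 17.1% of weaker shared and 22.8% of IDR summits (genome 11.8%), and TAATTA, a homeodomain sequence, at 8.20% of weaker shared and 9.87% of IDR summits (genome 6.47%). The homeodomain call ended against the 50% of IDR peaks with the lower signal, where the odds ratio was 1.02 (adjusted exact p = 0.837). DREF and ZIPIC sequences were thus less frequent than at IDR summits while still above the genome share, and the other pooled peaks had 0.462% for DREF and 0.114% for ZIPIC.

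The DREF and ZIPIC differences passed at promoters and not away from them. Among promoter summits the DREF sequence was at 2.43% of weaker shared peaks and 7.23% of IDR peaks (adjusted exact p = 1.52e-17). Away from promoters, where the weaker shared set held 5265 summits and the IDR set 3868, it was at 0.342% of weaker shared and 0.465% of IDR summits and did not pass (odds ratio 0.734, adjusted exact p = 0.551). The ZIPIC sequence was at 0.640% of weaker shared peaks and 1.76% of IDR peaks at promoters (adjusted exact p = 0.000208), and at 0.152% of weaker shared and 0.155% of IDR peaks away from them (adjusted exact p = 1). Core promoter motifs 6 and 7 had odds ratios of 1.04 and 1.06 away from promoters, with neither past the threshold. The TATA box (0.635) and the M1BP sequence (0.399, adjusted exact p = 0.0241) kept both direction and call there. Whether the promoter and distant odds ratios differ from each other was not tested.

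CACACACA, a simple repeat, was at 230 weaker shared summits (3.02%) and 1.23% of IDR summits, with a genome share of 2.06% (odds ratio 2.50, adjusted exact p = 2.05e-15). GAGAGAG, the GAF sequence printed in the Pka-C1 region, was at 156 weaker shared summits (2.05%) and 0.935% of IDR summits (genome 1.24%, odds ratio 2.22, adjusted exact p = 7.61e-09). Both differences were seen at promoters and away from them: the GAF sequence stood at 2.52% of weaker shared peaks and 0.864% of IDR peaks at promoters, and at 1.84% of weaker shared and 1.03% of IDR peaks away from promoters. At the replicates' own summits it was at 2.16% ± 0.0946 of weaker shared peaks and 0.943% ± 0.0862 of IDR peaks (SD, n = 3). The IDR summits were below the genome share for both of these sequences, the weaker shared summits were above it, and so were the other pooled summits, at 3.10% for the CA repeat and 2.29% for the GAF sequence. AAAAAAAA, the other simple repeat searched, did not pass, at 6.90% of weaker shared and 6.95% of IDR summits (odds ratio 0.992, adjusted exact p = 0.903).

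AACCGCA, the Runt sequence, was at 0.959% of weaker shared summits and 0.511% of IDR summits (odds ratio 1.89, adjusted exact p = 0.00183), both below its genome share of 1.24%. CACTTGA, the Tinman sequence, was at 2.04% of weaker shared and 1.42% of IDR summits (genome 1.79%, odds ratio 1.44, adjusted exact p = 0.00707). The other pooled summits were at 1.22% for the Runt sequence and 2.09% for the Tinman sequence, no lower than the weaker shared summits. The Tinman call ended in the weaker shared peaks with own summits in every replicate (adjusted exact p = 0.285), against the 50% of IDR peaks with the lower signal (0.221), at promoters (0.917) and away from them (0.0798). The Runt call ended against the 50% of IDR peaks with the lower signal (adjusted exact p = 0.184). CAGGTAG, the sequence of the early genome activator Zelda, did not pass, at 0.460% of weaker shared and 0.348% of IDR summits (odds ratio 1.32, 95% interval 0.818 to 2.14, adjusted exact p = 0.372), and its genome share was 0.533%.

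Away from promoters several further sequences differed. CACGTG, the E-box that Myc binds, was at 0.988% of weaker shared summits and 0.388% of IDR summits (genome 1.16%, odds ratio 2.56, adjusted exact p = 0.00424). CAGCTG, the E-box of proneural factors, was at 3.27% of weaker shared and 2.15% of IDR summits (genome 4.22%, odds ratio 1.54, adjusted exact p = 0.00619). GTGGGAA, the sequence of the Notch pathway factor Su(H), was at 1.23% of weaker shared and 0.672% of IDR summits (genome 1.23%, odds ratio 1.85, adjusted exact p = 0.0233). For the Myc, proneural and Su(H) sequences, the distant IDR summits were thus below the genome share. The distant weaker shared summits were below it for the Myc and proneural E-boxes and level with it for Su(H). The genome share covers all windows, not only distant ones. Other sequences were less frequent at the distant weaker shared summits, with both sets above the genome share. TGTTTAC, a forkhead sequence, was at 3.13% of weaker shared and 4.65% of IDR summits (genome 1.90%, odds ratio 0.663, adjusted exact p = 0.00174). CATATG, the Twist E-box, was at 3.70% of weaker shared and 4.78% of IDR summits (genome 2.74%, adjusted exact p = 0.0304). AGNNGGCGC, the CTCF sequence, was at 1.08% of weaker shared and 1.65% of IDR summits (genome 0.846%, adjusted exact p = 0.0455). TTTATG, the Caudal sequence, was at 13.1% of weaker shared and 15.2% of IDR summits (genome 10.7%, adjusted exact p = 0.0149). The mean G and C content of these distant summits also differed, at 37.8% for the weaker shared peaks and 31.6% for the IDR peaks, and its part in the motif differences was not tested.

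**Figure D4:**
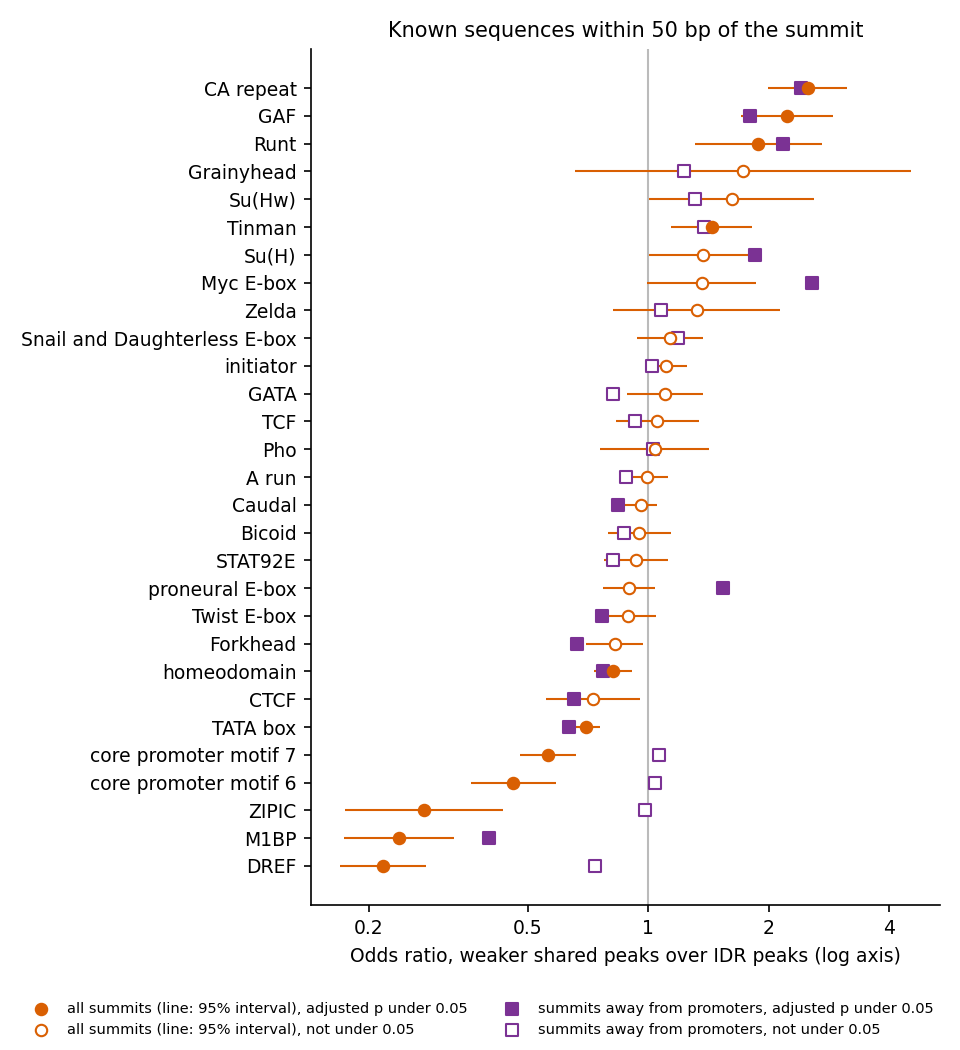
Odds ratio of weaker shared peaks over IDR peaks (horizontal log axis) for 29 sequences within 50 bp of the summit, for all summits (orange circles, lines are 95% intervals) and for summits away from promoters (purple squares). Filled symbols have an adjusted p under 0.05; DREF, at 0.217 over all summits, has an open square at 0.734, while the CA repeat and GAF are filled and above 1 in both.

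Weaker shared peaks added few promoters to those with an IDR peak. Of 13944 protein-coding genes, 2168 (15.5%) had a weaker shared summit within 500 bp of a TSS, 5941 (42.6%) had an IDR summit there and 7156 had neither. The 1321 genes with both were 60.9% of the genes with a weaker shared promoter summit and 22.2% of those with an IDR promoter summit. A further 847 genes (6.07%) had a weaker shared summit and no IDR summit. Without the members within 500 bp of an IDR summit, 1068 genes had a weaker shared promoter summit in place of 2168. By nearest TSS, 3406 genes (24.4%) took at least 1 weaker shared peak and 5566 (39.9%) at least 1 IDR peak, and 1127 genes took a weaker shared peak and no IDR peak. The weaker shared peaks were more gathered: 366 genes took 5 or more of them, against 236 genes with 5 or more IDR peaks. Such genes held 35.6% of weaker shared peaks against 18.2% of IDR peaks. Away from promoters lay 5265 weaker shared and 3868 IDR peaks, and the part of this in the gathering was not tested.

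The genes with the most weaker shared peaks were mostly long. The homeobox gene hth, whose protein is a partner of Hox proteins, took 30 weaker shared peaks and 22 IDR peaks over a gene of 132 kb on 3R (10507561 to 10639568), 25 of the 30 in introns. Their pooled signals ran from 51.7 through a median of 128 to 251, and 16 of the 30 had an own summit in every replicate. The Wnt receptor gene fz2 took 23 weaker shared and 15 IDR peaks in 94.4 kb of 3L, 22 of the 23 in introns, with signals from 50.5 to 259.978. CG42238 took 21 weaker shared and 10 IDR peaks, and the ubiquitin ligase adaptor gene rdx 17 weaker shared and 12 IDR peaks. The kinase gene Tlk took 16 weaker shared and 12 IDR peaks, and bun, a gene of the TSC22 family, 16 weaker shared and 9 IDR peaks. A short gene with many was noc, which encodes a zinc finger protein: it is 3.16 kb long and took 18 weaker shared peaks and 6 IDR peaks, 13 of the 18 in intergenic sequence and 5 at promoters. Of the remaining genes, plh took 16 weaker shared and 4 IDR peaks, CG14891 took 15 weaker shared and 2 IDR peaks, and CG43245 took 15 weaker shared and 17 IDR peaks. CG14891 and CG43245 are shorter than noc, at 1.644 and 1.475 kb. CG43245 was the one gene of the 10 with more IDR peaks. Nearest TSS is a rule of position, and 13 of the 15 at CG14891 lay in introns although none lay within CG14891 itself.

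The members that ranked highest on average in the 3 replicates stood almost all beside a stronger peak. Here and below, percentiles and replicate signals of single members belong to the replicate peak with the nearest summit, not to the highest interval. CG3253 led, with own summits at percentiles 88.1, 97.5 and 92.2 in replicates 1, 2 and 3 (mean 92.6 ± 4.70, SD, n = 3) and replicate signals of 242, 391 and 367, at 111 bp from its TSS. All 3 replicates were thus high there, while the pooled signal of 131.859 was near the members' median, and an IDR summit lay 272 bp away. Next came dx, which encodes a regulator of Notch, with percentiles 74.0, 76.9 and 91.7, and Adf1, a transcription factor gene, with 71.9, 86.6 and 75.8. The chromatin remodeler gene kis was even over the replicates, at 75.3, 71.7 and 73.8. The translation initiation gene eIF4A was uneven, at 57.9, 77.5 and 85.3. CkIIalpha-i3, yrt, pxb and Exn had means of 74.6, 72.9, 72.5 and 72.1. Of the 10 in this group, 9 lay within 300 bp of an IDR summit. The exception was CG4768 on the X chromosome, at 69.3, 75.8 and 71.7, with its nearest IDR summit 4507 bp away and its own summit at 88 bp from the TSS.

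The 3 members with the lowest pooled signal are given next. NUCB1, a nucleobindin gene, had a pooled signal of 48.9583, with nearest summits at percentiles 53.7, 46.5 and 87.0, the third of them 143 bp away. CG43658 (pooled signal 48.9969) was at 62.1, 18.2 and 2.17, and Eip63E, an ecdysone-induced kinase gene (49.1396), at 13.6, 17.3 and 1.81. None of these 3 had an own summit within 100 bp in every replicate. CG14710 itself took no weaker shared peak at its promoter: an IDR peak stood there, on 3R from 11619773 to 11620212, with its summit at -77 bp and a pooled signal of 1804.

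Developmental gene lists took between 0.345 weaker shared peaks per IDR peak, for the Hox genes, and 1.37, for the neural genes, against 0.828 over all protein-coding genes. The lists are described by counts, beside 15.5% of all protein-coding genes with a weaker shared promoter summit, 42.6% with an IDR one, and 0.546 weaker shared and 0.659 IDR peaks per gene by nearest TSS. Both kinds of promoter summit were at 1321 of 13944 protein-coding genes, and their overlap within a list was not tested. Signalling genes had a weaker shared promoter summit in 12 of 28 cases and an IDR one in 18, and took 108 weaker shared and 104 IDR peaks, or 3.86 weaker shared and 3.71 IDR peaks per gene. These genes are also long, with a median length of 16282 bp against 2161 bp for all protein-coding genes, and the part of gene length in the counts was not tested. The member of this list with the highest signal was the bnl intron peak printed above (262.411), with replicate signals of 130, 77.3 and 54.1 and percentiles of 75.3, 71.1 and 51.9. It was followed by fz2 (259.978; percentiles 61.6, 73.5 and 58.7) and Ser, a Notch ligand gene (257.436; percentiles 65.7, 59.2 and 72.0). All 3 lay more than 1000 bp from an IDR summit.

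Tracheal and epithelial genes had promoter summits in 4 of 12 cases for weaker shared peaks and 6 for IDR peaks, and took 51 weaker shared and 38 IDR peaks, 14 of the 51 at vvl, a POU factor gene. Their strongest members were at grh, which encodes Grainyhead (257.107; percentiles 67.4, 60.4 and 70.3), vvl (256.929; percentiles 78.9, 69.8 and 16.2) and kni (246.494; percentiles 73.6, 68.5 and 53.5). The vvl peak lay 49918 bp from the TSS and was low in replicate 3 alone. For the kni peak the nearest summit of replicate 3 was 140 bp away. Of 22 neural genes, 4 had a weaker shared and 9 an IDR promoter summit, and the list took 37 weaker shared and 27 IDR peaks. Their strongest members were in an intron of the RNA-binding protein gene elav (250.786; percentiles 78.3, 15.7 and 68.6), near the neural factor gene SoxN (250.662; percentiles 62.5, 52.1 and 72.6) and near the proneural gene ac (242.471; percentiles 69.2, 46.4 and 69.8). The nearest summit of replicate 2 was 159 bp away in the elav peak and 172 bp away in the SoxN peak. That replicate was the low one in all 3 of these neural peaks.

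Segmentation genes, which divide the early embryo, had a weaker shared promoter summit in 4 of 24 cases and an IDR one in 4, with 1 gene in both, and took 42 weaker shared and 40 IDR peaks. Their strongest members were an intergenic peak 6223 bp from the TSS of the homeobox gene en (262.065; percentiles 55.3, 66.0 and 74.0), one near ptc, the Hedgehog receptor gene (254.882; percentiles 68.4, 53.9 and 72.5), and one in an intron of the Wnt antagonist gene nkd (251.202; percentiles 74.1, 77.0 and 23.2). The nearest IDR summit to the en peak was 19589 bp away. Of 20 dorsoventral and mesoderm genes, 6 had a weaker shared and 5 an IDR promoter summit, and the list took 44 weaker shared and 57 IDR peaks. Both vnd and pnr, a GATA factor gene, carried a weaker shared peak at the promoter. The vnd peak was at -114 bp, with percentiles of 76.7, 63.8 and 53.7 in replicates 1, 2 and 3. The pnr peak was at 13 bp, with percentiles of 72.5, 74.6 and 59.4. Neither had an IDR summit within 5000 bp. The intron peak of rho, which encodes a protease of EGF signalling, had percentiles of 67.4, 47.3 and 75.6.

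Hox genes, which set segment identity, took fewer weaker shared than IDR peaks. None of 8 had a weaker shared promoter summit, while 2 had an IDR one, and they took 10 weaker shared and 29 IDR peaks. Their strongest members were intron peaks in the regions of abd-A (261.032; percentiles 65.9, 61.2 and 71.9), lab (258.812; percentiles 53.6, 71.8 and 75.4) and Ubx (249.53; percentiles 69.9, 42.7 and 72.1). The lab peak was 212 bp from an IDR summit and the Ubx peak 13689 bp. With 8 genes the list is small, and whether it differs from the others was not tested.

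Genes of protein synthesis and respiration mostly had an IDR peak at the promoter, which left few genes that could have a weaker shared peak alone. Cytosolic ribosomal protein genes had a weaker shared promoter summit in 14 of 92 cases (15.2%), of which 11 also had an IDR summit, and an IDR one in 84 (91.3%). They took 23 weaker shared and 88 IDR peaks. Their strongest member was at the RpS3A promoter (244.914, percentiles 72.9, 70.7 and 77.7). Next came members in 3' untranslated regions near RpS23 (232.9, percentiles 75.8, 75.5 and 59.4) and RpL13 (228.484, percentiles 78.6, 30.2 and 25). The RpS3A and RpS23 summits were 210 and 199 bp from an IDR summit. For RpS3A the nearest summit of replicate 1 was 126 bp away. Mitochondrial ribosomal protein genes had a weaker shared promoter summit in 11 of 73 cases and an IDR one in 64, and of 84 oxidative phosphorylation genes 15 had a weaker shared and 61 an IDR one. Of 48 proteasome genes, 4 had a weaker shared and 30 an IDR one. A weaker shared promoter summit without an IDR one was found at 3 of the 8 cytosolic ribosomal protein genes that lacked an IDR one, 3 of 9 mitochondrial, 3 of 23 oxidative phosphorylation and 1 of 18 proteasome genes, against 10.6% of all protein-coding genes that lacked one.

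By nearest TSS, mitochondrial ribosomal protein genes took 17 weaker shared and 41 IDR peaks, oxidative phosphorylation genes 31 weaker shared and 70 IDR peaks, and proteasome genes 9 weaker shared and 25 IDR peaks. Several of their strongest weaker shared peaks were assigned over a long distance: that of COX4 lay at -8872 bp from its TSS (254.667), that of mRpL21 at 9273 bp (230.477) and that of Prosbeta2 at 7016 bp (252.265). Peaks nearer to a start site were those of mRpS30, at 9 bp (214.025) and 201 bp from an IDR summit, and mRpS34, at -66 bp (179.388) with percentiles of 63.6, 63.8 and 3.57. The replicate 3 summit behind the last value was 152 bp from the mRpS34 peak. The promoter class of the ND-B14.7 peak (248.841) came from a TSS of another gene, since it lay 4669 bp from that of ND-B14.7.

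Cell cycle and replication genes had a promoter summit of each kind more often than all protein-coding genes did. A weaker shared one was found at 11 of 35 (31.4%) and an IDR one at 30 (85.7%). Both were at 7, against 1321 of all 13944 protein-coding genes. The overlap that the separate shares would give by themselves was not computed. By nearest TSS the list took 35 weaker shared and 41 IDR peaks, 12 of the 35 at E2f1. The spindle checkpoint gene BubR1 carried a weaker shared peak at -301 bp (261.947; percentiles 64.7, 40.5 and 62.4) and Cdk4 one at -391 bp (250.725; percentiles 44.3, 68.4 and 64.0), which were 201 and 199 bp from an IDR summit. The highest interval over the summit stood at percentile 87.3 for BubR1 in replicate 2. For Cdk4 it stood at 85.6 in replicate 2 and 86.9 in replicate 3. The E2f2 peak whose window was printed (258.363) had percentiles of 75.2, 76.3 and 43.3 and lay 2211 bp from one. Of 18 insulator and architectural protein genes, 6 had a weaker shared and 13 an IDR promoter summit, and the list took 7 weaker shared and 20 IDR peaks. Among them insv carried a weaker shared peak at -17 bp (257.423; percentiles 55.2, 41.3 and 80.0) with no IDR summit within 1000 bp, while the peaks of pita (237.771) and mod(mdg4) (215.754) were 203 and 209 bp from one.

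Chemosensory receptor and cuticle protein genes had few peaks of either set at promoters. Chemosensory receptor genes had a weaker shared promoter summit in 4 of 179 cases (2.23%) and an IDR one in 2 (1.12%). No gene had both, and counts this low leave little room for it. They took 41 weaker shared and 17 IDR peaks by nearest TSS, 9 of the 41 at Or67d. Of their strongest members, that of Ir67c lay at -276 bp (247.112; percentiles 62.5, 48.0 and 74.1), while those of Gr93a and Or65a lay at 4655 and -11800 bp from the TSS. Of 119 cuticle protein genes, 3 had a weaker shared and 1 an IDR promoter summit, and the list took 8 weaker shared and 11 IDR peaks, the strongest weaker shared ones being in the Cpr73D region (258.497; percentiles 60.8, 54.3 and 74.7), near Cpr65Az (248.919) and near Cpr35B (206.821). Chemosensory receptors were the one list of the 14 with over 2 weaker shared peaks for each IDR peak, at 2.41, against 0.828 over all genes.

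**Figure D5:**
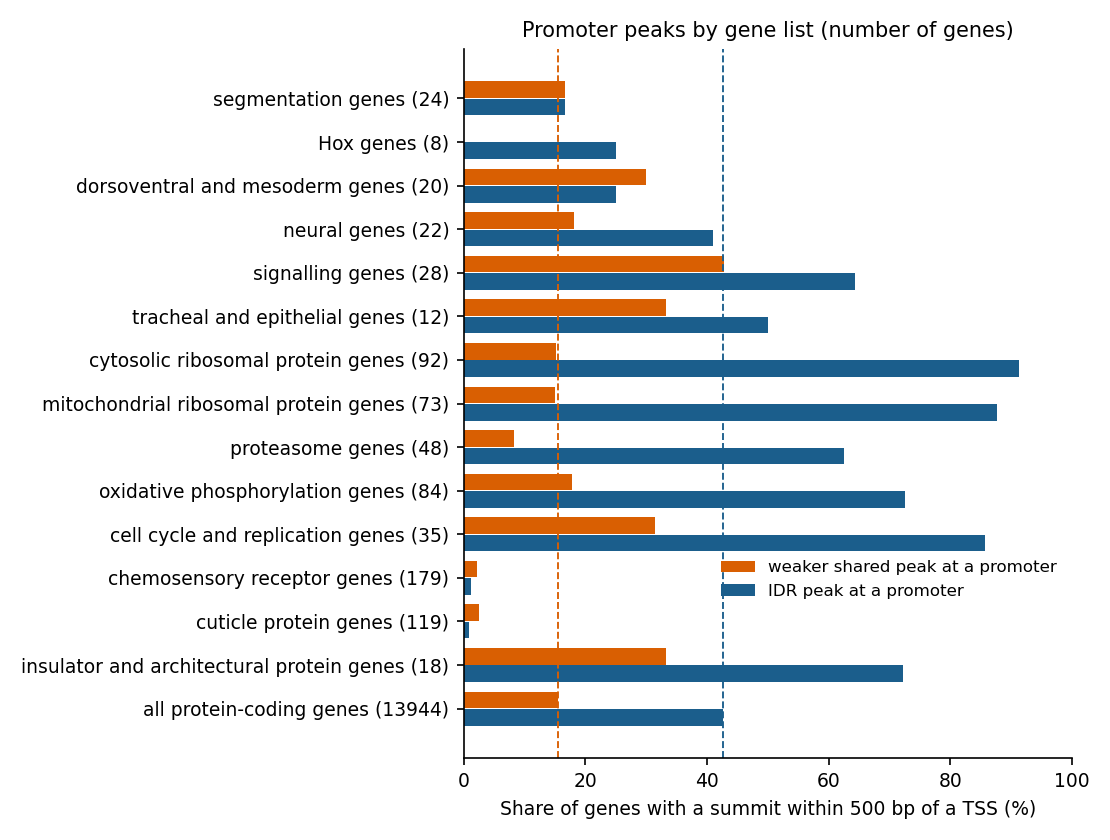
Share of genes (horizontal axis, %) with a summit within 500 bp of a TSS, for weaker shared peaks (orange, upper bar of each pair) and IDR peaks (blue, lower bar), by gene list with the number of genes; dashed lines mark all protein-coding genes, at 15.5% for weaker shared and 42.6% for IDR peaks. Ribosomal protein lists are near the orange line and far past the blue line, and the dorsoventral and mesoderm list is the longest of the pairs in which the orange bar exceeds the blue one.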

How the data were processed

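The study's 5 narrowPeak lists were used: 1 per replicate, the pooled list and the IDR list. Per the labels and the accompanying text files, the authors made each replicate list on dm6 with 1 control for all replicates, and it holds 30000 peaks. The signal of each peak is the value the authors deposited, with no stated scale, and was used to rank or filter within a list. The q value, deposited by the authors as -log10, was capped and not used. The aligner, caller and read depth are not given in the sources at hand here, so precision rests on the number of peaks. The summit offset was deposited by the authors, and summits on the arms were set against the RefSeq annotation (17796 genes, 23316 TSS). Region classes took promoters first, then exons, introns and intergenic sequence. Tests were two-sided Fisher's exact tests adjusted by Benjamini-Hochberg within 7 regions, 6 arms or 29 motifs, with a threshold of 0.05. They cover counting error only.

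The members, the 14 gene lists and the motifs were chosen with earlier results of these data known. Named genes were those nearest to the 10 members with the highest mean percentile among members with own summits in all 3 replicates, the 10 genes with the most members, up to 3 members of each list by signal, CG14710, and the 3 strongest and 3 weakest members, with motifs by odds ratio. Lists share genes, such as N, Dl and ptc. In a test on simulated data, 3 of 3 planted differences were recovered and 0 of 33 other tests passed. Alternatives were own summits, 1 replicate left out, members apart from IDR peaks, signal subsets, other windows, promoter splits and unmasked summits. Software was scipy 1.17.1 and pandas 2.3.3 in Python 3.11.15, with numpy 2.4.6, and figures used matplotlib 3.10.9.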

Additional observations from a re-analysis of the deposited data

How the results depend on the processing

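The lower promoter share kept direction and call under every alternative run, with odds ratios from 0.222 to 0.449. The number of weaker shared peaks was 4296 with an own summit within 100 bp in each replicate, 3805 in the 50% with the higher signal, and between 9086 and 11824 with 1 replicate not asked for, the highest being without replicate 3. Genes with a weaker shared promoter summit numbered 1193, 1329 and 1068 with own summits, with the higher signal and further than 500 bp from every IDR summit, the last added after seeing the data. Leaving out 1 replicate gave between 1 and 2 called arms and between 13 and 17 called motifs in place of 11, and 0 arms passed against the 50% of IDR peaks with the lower signal. Zelda passed only without replicate 3 (odds ratio 1.80, adjusted exact p = 0.0104).

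Odds ratios crossed 1 for Caudal against the IDR peaks with the lower signal (1.01), with a window of 100 bp on each side (1.00049) and outside soft-masked bases (1.04), and for the homeodomain sequence against the IDR peaks with the lower signal (1.02). Away from promoters they crossed for core promoter motif 6 (1.04), motif 7 (1.06) and the proneural E-box (1.54), and at promoters for Forkhead (1.06) and Su(H) (0.98). The cause was not tested. Read depth and the lists' fixed length limit what a missing peak means, and 3 replicates of 1 group allow no comparison of conditions.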
